A study of Mus musculus with 2 samples.

Results

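The insulin-like growth factor 2 (Igf2) axis was followed through 10 of the 28692 genes of 2 single-cell RNA libraries from mouse small cell lung cancer. The genes are the ligand Igf2, its neighbouring noncoding RNA H19, the receptors Igf2r and Igf1r, the RNA-binding proteins Igf2bp1, Igf2bp2 and Igf2bp3, and the secreted binding proteins Igfbp2, Igfbp4 and Igfbp5. They were found by symbol in both matrices, and all 10 are present there. The set was chosen by the role of its genes around Igf2, and Igf2 was selected on its already known ratio of UMIs between these 2 libraries, so its values below are a description.

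IGF2 is a secreted growth factor of fetal tissue that is made mainly from the paternal copy of its gene, while the neighbouring H19 RNA is made from the maternal copy. The ligand signals through IGF1R, a receptor tyrosine kinase that feeds the PI3K, AKT and mTOR pathway, whereas IGF2R binds IGF2 and carries it to lysosomes. IGFBPs hold the ligand outside the cell, and IGF2BPs bind RNAs, among them IGF2 mRNA, in the cytoplasm. IGF2 is a known autocrine growth factor of several endocrine and childhood tumours.

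Both libraries came from lung tumours of mice of mixed strain that carried CGRPCreER/+ and Rosa26mTmG. With them they carried floxed alleles, Rbf/f and P53f/f among them. In such animals a tamoxifen-inducible Cre at the CGRP locus, active in pulmonary neuroendocrine cells, removes the floxed tumour suppressors and turns on membrane GFP. Live GFP-sorted cells were loaded on the 10x platform, 5000 per library. The vehicle group received saline, and the cisplatin group received 5 mg per kg of this DNA-crosslinking drug, every 4 days for 2 weeks. The library protocol also names etoposide for the treated tumours, and neither the number of animals or tumours per library nor their age was given in the sources used here. There was 1 library per group, so treatment, animal and library cannot be told apart, no test between treatments was possible, and every interval below covers counting error only.

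After removal of barcodes with few genes, many mitochondrial UMIs or markers of stromal or blood cells, 3650 vehicle and 4212 cisplatin tumour cells remained, with medians of 8210 and 5940.5 UMIs (unique molecular identifiers, 1 per captured RNA molecule). All 13 neuroendocrine markers had UMIs in both libraries, with a summed level of 6594 CPM (UMIs scaled to the same library total) in vehicle and 8749 in cisplatin. Of 12 fibroblast markers 10 and 11 had UMIs, at summed levels of 46.7 and 22.9 CPM, and the erythroid markers summed to 53.8 and 0.734 CPM. Most of the fibroblast sum was Dcn (42.9 and 19.7 CPM). The 11 endothelial markers summed to 555 and 225 CPM, nearly all of it Vwf (543.8 and 210.9). Pecam1 (1.99 and 2.55), Egfl7 (5.20 and 6.22) and Ramp2 (3.18 and 3.81) were no lower in cisplatin. The remaining markers had few UMIs, with Kdr (0.405 and 0.245), Cdh5, Emcn, Tie1 and Cldn5 lower and Tek (0.156 and 0.524) and Eng higher. The myeloid markers summed to 40.9 and 21.2 CPM, with S100a8 lower in cisplatin (14.7 and 0.873) but C1qa higher (8.69 and 15.1). Other lists had higher sums in cisplatin, with T and NK cell markers at 13.9 and 16.5 CPM and B and plasma cell markers at 1.68 and 2.87. Alveolar type 2 markers summed to 79.3 and 208 and club cell markers to 1362 and 2307. These rises came largely from Cd3g (1.87 and 4.58), Cd79a (0.467 and 1.75), Sftpc (24.8 and 162.9) and Scgb1a1 (731.2 and 2006). In each list some of the other markers were higher and some lower. Among the lower were Trbc2 (1.49 and 0.524), Igkc (0.436 and 0.349), Abca3 (29.5 and 19.8) and Aldh1a7 (517.2 and 241.7). The part of these markers in the results below was not tested. Rb1 stood at 19.6 and 13.6 CPM and Trp53 at 71.6 and 81.5, in that order of libraries. Tags near the 3' end do not check the deletions, because the sources used here do not say which exons are floxed. The libraries shared 23 barcode sequences.

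Igf2, the ligand, showed the largest difference between the libraries among the 6 measured members. In vehicle tumour cells 5925 Igf2 UMIs gave 184.4 CPM (95% Poisson interval 179.8 to 189.2), and in cisplatin tumour cells 586 UMIs gave 20.5 CPM (18.9 to 22.2). The intervals lay far apart, and the level was 9.01-fold lower in cisplatin (ratio 0.111, 0.102 to 0.121; log2 ratio -3.11 with 1 CPM added). The median log2 ratio of all 13400 genes with at least 50 UMIs was -0.16, and it was -0.02 when libraries were scaled by TMM and 0.00 with median-of-ratios size factors. Igf2 then stood at -2.96 and -2.93.

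RefSeq annotates 4 transcription starts for mouse Igf2, and the bases before each are shown because the gene's promoters differ in composition and 3' counting merges their transcripts into 1 value. Each line gives the 100 bases before a start on the minus strand of GRCm38.p6, 5′ to 3′, from the start farthest upstream to the one nearest the coding sequence. Capitals mark GGGCGG, the core of the GC box, or its reverse complement CCGCCC.
Igf2 start 1, chr7:142666817-142666916: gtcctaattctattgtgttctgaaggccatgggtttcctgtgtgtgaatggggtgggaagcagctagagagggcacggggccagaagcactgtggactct
Igf2 start 2, chr7:142661272-142661371: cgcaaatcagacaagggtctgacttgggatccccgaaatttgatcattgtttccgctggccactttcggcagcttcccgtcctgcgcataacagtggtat
Igf2 start 3, chr7:142658805-142658904: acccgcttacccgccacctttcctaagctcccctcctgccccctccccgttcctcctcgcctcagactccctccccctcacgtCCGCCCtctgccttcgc
Igf2 start 4, chr7:142657497-142657596: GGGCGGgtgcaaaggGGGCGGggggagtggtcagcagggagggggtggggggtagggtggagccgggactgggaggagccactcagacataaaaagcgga
In the 250 bases before each start, GGGCGG on either strand occurred 0, 0, 1 and 2 times, and the G and C content was 50.8%, 47.6%, 68.8% and 66.0%. The motif was found in 32.7% of 32851 RefSeq promoters of that length. The letters describe these windows and say nothing of which start was used in either library.

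**Figure D1:**
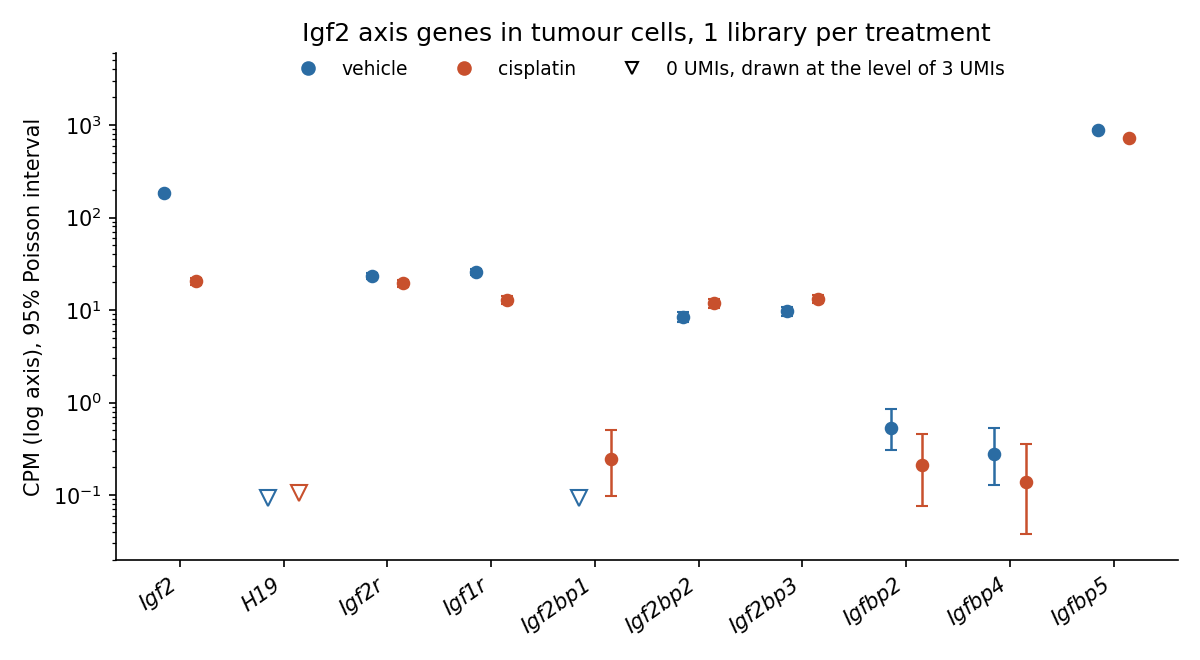
Level of each of the 10 members in vehicle (blue) and cisplatin (red) tumour cells, in CPM on a log axis with 95% Poisson intervals; open triangles stand at the level of 3 UMIs for genes with 0 UMIs. Igf2 shows the widest gap between the libraries, from 184.4 to 20.5 CPM, and 4 members sit at the bottom with few or no UMIs.

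The difference in Igf2 was also seen cell by cell. When each cell was thinned to 3000 UMIs, 1085 of 3507 vehicle cells had an Igf2 UMI, a share of 30.9% (95% Clopper-Pearson interval 29.4 to 32.5%). In cisplatin the share was 5.76% (5.05 to 6.55%; 222 of 3851). Without thinning the shares were 52.3% and 10.7%. Among vehicle barcodes left out for stromal or blood markers, 3 of 19 had an Igf2 UMI after thinning (15.8%, 3.38 to 39.6%), and in cisplatin 0 of 6 had one, which allows a share of up to 50%. Those barcodes had medians of 5596 and 6016 UMIs. The vehicle share was above theirs in its point value, while in cisplatin 6 barcodes were too few to set a level for free RNA.

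Igf2 was uneven among vehicle cells. In thinned cells 2422 had none, 706 had 1 UMI, 237 had 2, 120 had 3 to 5 and 22 had 6 or more. The 10% of cells with the most Igf2 held 57.9% of its UMIs. Its variance was 2.52 times its mean, which placed it at rank 88 of 5133 genes averaging 0.1 UMIs or more, whose median ratio was 1.04. Counted without thinning, 1 vehicle cell had 118 Igf2 UMIs, and the 72 cells with 10 or more (1.97%) held 24.05% of them. In cisplatin the highest cell had 13 UMIs and 1 cell reached 10. A Poisson interval understates the spread of a gene as uneven as this. The same holds for Igfbp5, whose variance was 2.45 times its mean in vehicle and 2.51 times in cisplatin.

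**Figure D2:**
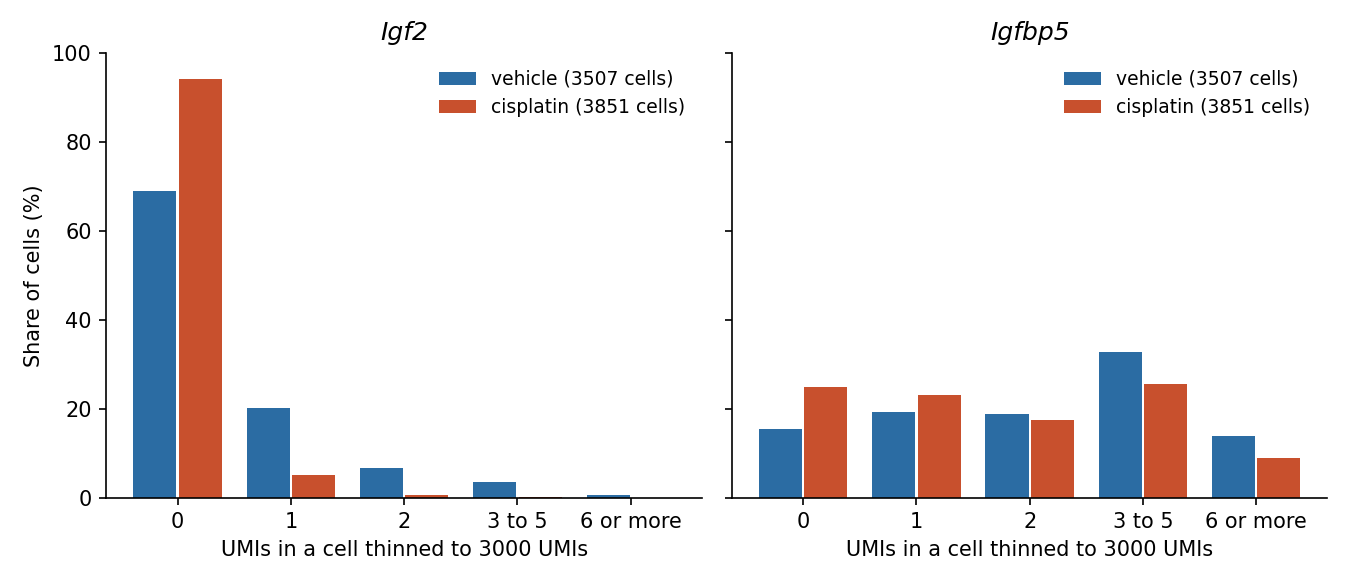
Share of tumour cells (%) with 0, 1, 2, 3 to 5 and 6 or more UMIs of Igf2 (left) and Igfbp5 (right) after thinning every cell to 3000 UMIs, in 3507 vehicle and 3851 cisplatin cells. Most cisplatin cells had no Igf2 UMI (3629 of 3851), whereas Igfbp5 was found in most cells of both libraries.

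H19, the maternally expressed noncoding RNA beside Igf2, had 0 UMIs in either library, which allows up to 0.0934 CPM in vehicle and 0.105 CPM in cisplatin at 3 counts. Co-detection of Igf2 with H19 could not be described for that reason. H19 was also at 0 in the barcodes left out. No gene on its strand that is counted in the matrices overlaps it (chr7, bases 142575529 to 142578143, minus strand, GENCODE M21 on GRCm38).

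Within 300 kb of Igf2 (chr7, 142650766 to 142666816, minus strand), 15 of the 25 annotated genes are in the matrices and 5 had 50 or more UMIs. No measured neighbour differed as much as Igf2. Ctsd, a lysosomal protease, stood at 206.2 CPM in vehicle and 240.3 in cisplatin (log2 ratio 0.22), and Mrpl23, a mitochondrial ribosomal protein gene, at 157 and 196.5 (0.32). Ifitm10 stood at 6.01 and 3.70 CPM (-0.58), which is lower in cisplatin. Igf2os, a transcript on the opposite strand of Igf2, had 27 UMIs in each library (0.840 and 0.943 CPM). Ins2, the insulin gene directly upstream, had none.

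Igf1r, the signalling receptor, was the other measured member past 1.5-fold. It had 828 UMIs and 25.8 CPM (24.0 to 27.6) in vehicle and 371 UMIs and 13.0 CPM (11.7 to 14.4) in cisplatin, intervals that do not overlap, a 1.99-fold lower level (log2 ratio -0.94). Its share of thinned cells with a UMI was 7.73% in vehicle and 3.95% in cisplatin. Igf1r has the longest annotated transcript of the measured members, 11409 bases, and ratios were lower for longer transcripts over all genes. With that trend removed the log2 ratio of Igf1r was -0.56, and without Hhex-positive cells it was -0.66.

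Igf2r, the clearance receptor, had 749 UMIs and 23.3 CPM (21.7 to 25.0) in vehicle and 556 UMIs and 19.4 CPM (17.8 to 21.1) in cisplatin, within 1.5-fold (log2 ratio -0.25). Without the trend on transcript length its ratio was 0.07, so no direction is given for it. Airn, the paternally expressed antisense RNA that overlaps Igf2r, was looked up after the values were seen and stood at 14.0 CPM in vehicle and 13.1 in cisplatin.

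Among the RNA-binding proteins, Igf2bp2 had 272 UMIs and 8.47 CPM (7.49 to 9.54) in vehicle and 340 UMIs and 11.9 CPM (10.7 to 13.2) in cisplatin. Igf2bp3 had 314 UMIs and 9.77 CPM (8.72 to 10.9) in vehicle and 381 UMIs and 13.3 CPM (12.0 to 14.7) in cisplatin. Both levels were somewhat higher in cisplatin, with log2 ratios of 0.44 and 0.41, within 1.5-fold. Under TMM scaling both were past that limit in CPM, which is judged without an added value. Their log2 ratios with 1 CPM added were then 0.59 and 0.55. In cells thinned to 3000 UMIs these ratios were smaller, at 0.31 and 0.16. Igf2bp1 had 0 UMIs in vehicle, which allows up to 0.0934 CPM, and 7 UMIs in 7 cisplatin cells. Igf2bp2 and Igf2bp3 were each found in a few percent of thinned cells (2.57% and 3.51% in vehicle, 3.12% and 3.79% in cisplatin), and 1 cell in each library held both.

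Igfbp5, a secreted binding protein, was the most widely detected member. It had 28511 UMIs and 887.5 CPM (877.2 to 897.8) in vehicle and 20502 UMIs and 716.3 CPM (706.5 to 726.1) in cisplatin, within 1.5-fold (log2 ratio -0.31). After thinning, its share of cells with a UMI was 84.5% (83.3 to 85.7%) in vehicle and 75.0% (73.6 to 76.4%) in cisplatin, while 10 of 19 and 4 of 6 of the barcodes left out had one. Counted without thinning, cells with 10 or more Igfbp5 UMIs made up 29.9% of vehicle and 12.8% of cisplatin tumour cells. Total UMIs per cell were also lower in cisplatin. Igfbp2 had 17 UMIs in vehicle and 6 in cisplatin, and Igfbp4 had 9 and 4, too few to compare. In vehicle, 27 of the 36 deposited Igfbp4 UMIs were in 22 barcodes left out for other cell markers.

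Of the 10 members, 6 had the 50 UMIs needed over both libraries, and each of them also exceeded 50 in either library alone. Of these 6, 0 were 1.5-fold higher and 2 were 1.5-fold lower in cisplatin. Over all 13400 measured genes 8.13% were higher and 21.5% were lower, so lower values were common throughout. TMM moved these shares to 11.8% and 14.2% and size factors to 12.5% and 13.2%. The median of the 6 members was -0.28 against -0.16 over all genes. The shares of thinned cells with Igf2r, Igf1r, Igf2bp2 or Igf2bp3 in vehicle were no higher than those of the 19 stromal or blood-marked barcodes (2, 4, 1 and 2 barcodes), so their shares per cell are not read as expression above background.

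In vehicle cells, detection of Igf2 went with no clear difference in other members. There, 84.1% of cells with an Igf2 UMI and 84.7% of cells without one had an Igfbp5 UMI. In cisplatin these shares were 84.2% (78.8 to 88.8%) and 74.5% (73.0 to 75.9%), and whether the gap differs from that in vehicle was not tested. Igf2r was found in 7.37% of vehicle cells with and 7.64% without Igf2, and Igf1r in 7.47% and 7.85%.

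The 6 genes most like Igf2 over 3507 vehicle cells were Resp18 (Pearson r 0.146), Cartpt (0.112), Dmkn (0.109), Dpep2 (0.103), Tcf19 (0.099) and Cst6 (0.096), out of 7059 genes ranked. All 6 values are weak, and in cisplatin cells they were 0.081, 0.131, 0.025, 0.058, -0.007 and -0.005. Cells of a library share its depth and free RNA, so these values are no more than a ranking.

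Cell cycle state was assigned from thinned counts. Cells with 2 or more UMIs summed over 10 mitotic genes were called mitotic, and the others S-gene-high (more than 3 UMIs over 17 replication genes) or S-gene-low. Mitotic cells made up 36.4% of vehicle and 39.9% of cisplatin cells, S-gene-high cells 31.9% and 27.6%, and S-gene-low cells 31.7% and 32.5%. Within these states, 1196 vehicle and 1163 cisplatin cells had 1 or 2 mitotic UMIs and so lay at the limit. Deeper cells were more often mitotic, with medians of 9854 UMIs against 7442 in S-gene-low cells of vehicle and 7808 against 5172 in cisplatin.

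Igf2 differed by less than 1.5-fold between the states of a library, and was lower in cisplatin in each. The vehicle levels were 191.5 CPM in S-gene-low, 199.6 in S-gene-high and 170.2 in mitotic cells, and its cisplatin levels were 22.8, 17.8 and 20.1 CPM. The ratios between libraries were 0.119 in S-gene-low cells (0.101 to 0.140), 0.0890 in S-gene-high cells (0.0740 to 0.106) and 0.118 in mitotic cells (0.104 to 0.135). Igf1r was likewise lower in cisplatin in each state, with ratios of 0.549, 0.557 and 0.447.

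Igf2bp2 and Igfbp5 differed between states. Igf2bp2 stood at 6.37 CPM (4.77 to 8.33) in S-gene-low and 10.7 (8.97 to 12.6) in mitotic vehicle cells, and at 7.16 (5.38 to 9.35) and 16.2 (14.0 to 18.5) in cisplatin cells. The mitotic level was thus 1.67-fold (1.21 to 2.34) and 2.26-fold (1.67 to 3.10) higher, with S-gene-high cells in between at 7.44 and 9.16 CPM. The vehicle difference of Igf2bp2 was within 1.5-fold when 1 mitotic UMI sufficed (log2 ratio 0.48) and when states were called without thinning (0.47), beside 0.66; in cisplatin it stayed past that limit under both (0.96 and 0.94). Igfbp5 went the other way, from 1182 CPM in S-gene-low to 923.1 in S-gene-high and 657.3 in mitotic vehicle cells, and from 915.0 to 771.4 and 548.0 in cisplatin. Its mitotic level was 1.80-fold lower in vehicle and 1.67-fold lower in cisplatin.

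Over all measured genes, 14.2% were 1.5-fold higher and 6.07% lower in mitotic than in S-gene-low vehicle cells, and 14.7% and 7.83% in cisplatin. Of the 6 measured members, 1 was higher (Igf2bp2) and 1 lower (Igfbp5) in each library. Igf2bp3 stood at 7.14 CPM in S-gene-high and 11.1 in S-gene-low vehicle cells, and at 13.8 and 13.3 CPM in cisplatin. In S-gene-high cells its CPM was 1.93-fold higher (1.41 to 2.65) in cisplatin. In cells thinned to equal depth this was not seen, with an Igf2bp3 UMI in 2.68% of vehicle and 2.64% of cisplatin S-gene-high cells and in 4.05% and 4.48% of S-gene-low cells. Without thinning the S-gene-high shares were 6.34% in vehicle and 8.66% in cisplatin. As these measures differ, no difference between libraries or states is read for Igf2bp3. Its higher CPM over all cisplatin tumour cells is a description only.

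**Figure D3:**
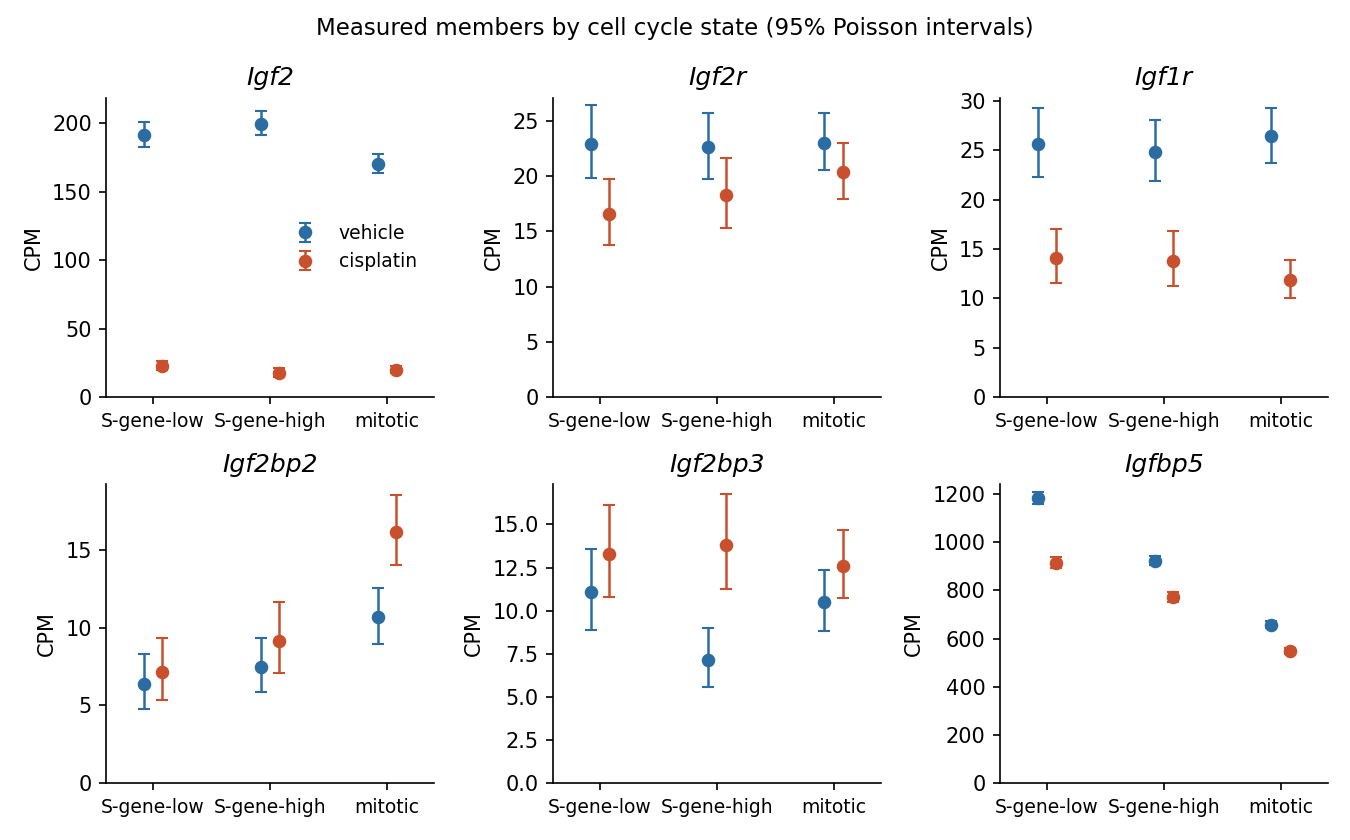
Level in CPM, with 95% Poisson intervals, of the 6 measured members in S-gene-low, S-gene-high and mitotic tumour cells of the vehicle (blue) and cisplatin (red) libraries; each axis starts at 0. Igf2bp2 is highest and Igfbp5 lowest in mitotic cells of both libraries, while Igf2 is low in every cisplatin state (17.8 to 22.8 CPM).

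Hhex, a homeobox factor of pancreatic delta cells, marked a group of cells that was mostly in the cisplatin library. A cell with at least 1 Hhex UMI was called Hhex-positive, which took 51 of 3650 vehicle cells (1.40%) and 909 of 4212 cisplatin cells (21.6%). These cells were deeper, with medians of 7926 UMIs against 5529 in Hhex-negative cisplatin cells and 11355 against 8180 in vehicle. A Hhex UMI was also present in 2 of the 6 cisplatin and 1 of the 22 vehicle barcodes left out for stromal or blood markers, and how many cells free RNA makes positive was not tested.

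Igf2, Igf1r and Igfbp5 were lower in Hhex-positive than in Hhex-negative cells of the cisplatin library. Igf2 stood at 9.30 CPM (7.27 to 11.7; 72 UMIs) against 24.6 (22.5 to 26.8; 514 UMIs), a ratio of 0.378 (0.291 to 0.484). Igf1r stood at 4.65 CPM (3.26 to 6.43; 36 UMIs) against 16.1 (14.4 to 17.9; 335 UMIs), a ratio of 0.290 (0.199 to 0.409). Igfbp5 stood at 469 CPM against 808, a ratio of 0.580 (0.560 to 0.602). These 3 of the 6 measured members were 1.5-fold lower and 0 were higher, where 13.9% of 12206 measured genes were lower and 10.2% higher.

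The other measured members differed by less than 1.5-fold over all states. Igf2r stood at 15.6 CPM in Hhex-positive and 20.8 in Hhex-negative cells (log2 ratio -0.39), but without mitotic cells its ratio was -0.67, past that limit, which made 4 members lower. Igf2bp2 stood at 13.2 and 11.4, and Igf2bp3 at 12.3 and 13.7. Of the 7 Igf2bp1 UMIs in cisplatin, 6 were in Hhex-positive cells (0.775 CPM, 0.284 to 1.69) and 1 was in a Hhex-negative cell. The level of Igf2bp1 was thus near the limit of detection in either group.

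In the vehicle library the 51 Hhex-positive cells held 105 Igf2 UMIs, at 166.4 CPM (136.1 to 201.4) against 184.8 in Hhex-negative cells. Igfbp5 stood at 850.8 against 888.2 CPM there, and Igf1r at 20.6 (10.97 to 35.2) against 25.9. The intervals of the 2 classes overlap for all 3 genes, and the ratio of Igf2 was 0.9002 (0.735 to 1.09). Igf2bp2 had 11 UMIs in these cells, at a ratio of 2.10 (1.04 to 3.83), and Igf2bp3 had 3, at a ratio of 0.481 (0.0987 to 1.42). Whether the Hhex ratio of Igf2 differs between the libraries was not tested.

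Hhex-negative cells alone kept the difference between libraries. Igf2 stood at 184.8 CPM in 3599 vehicle and 24.6 in 3303 cisplatin Hhex-negative cells, 7.51-fold lower (ratio 0.133, 0.122 to 0.146). Igf1r stood at 25.9 and 16.1 CPM, 1.61-fold lower. Igfbp5 stood at 888.2 and 808, closer than over all tumour cells. Within Hhex-negative cisplatin cells Igfbp5 again stood highest in S-gene-low cells (1034 CPM), followed by S-gene-high (892) and mitotic cells (609.6).

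State and Hhex class were also crossed in the cisplatin library. Igf2 stood at 10.96 CPM in Hhex-positive and 27.4 in Hhex-negative S-gene-low cells, at 6.69 and 22.2 in S-gene-high cells and at 10.2 and 23.8 in mitotic cells. The Hhex-positive level was thus the lower in each of the 3 states, on 23, 14 and 35 UMIs. Igfbp5 in Hhex-positive cells kept the order of states seen elsewhere, at 606.8, 470.9 and 379.6 CPM. Among the 51 vehicle cells, Igf2 stood at 80.5 CPM (36.8 to 152.8) in 11 S-gene-low, 108.7 (67.3 to 166.2) in 17 S-gene-high and 229.9 (180.9 to 288.2) in 23 mitotic cells, and these few cells hold uneven counts.

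**Figure D4:**
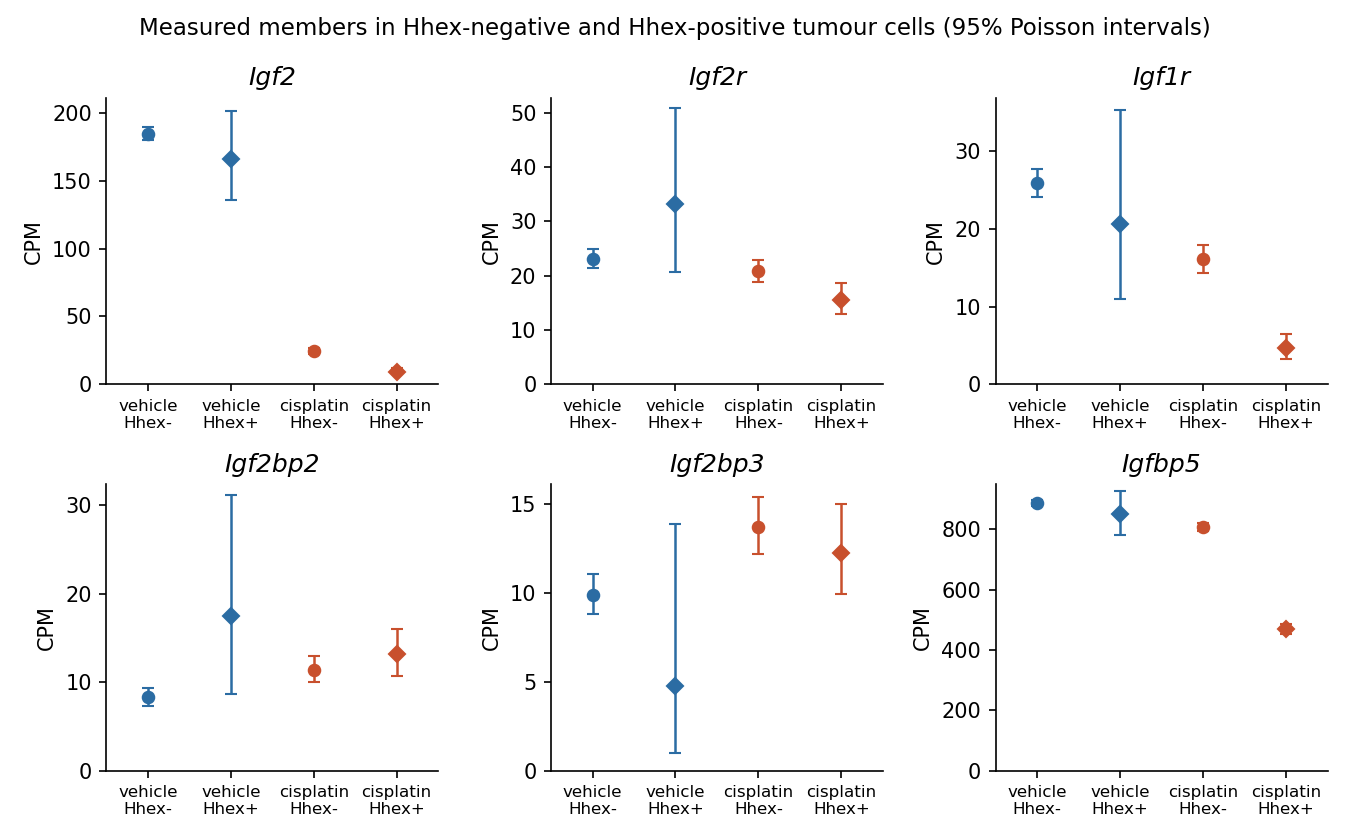
Level in CPM, with 95% Poisson intervals, of the 6 measured members in Hhex-negative (circles) and Hhex-positive (diamonds) tumour cells of the vehicle (blue) and cisplatin (red) libraries; each axis starts at 0. In cisplatin, Igf2, Igf1r and Igfbp5 are lower in Hhex-positive cells (9.30, 4.65 and 469 CPM); the vehicle diamonds rest on 51 cells.

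Related genes were counted in 5 lists, to be read against the 8.13% of all measured genes that were higher in cisplatin, the 21.5% that were lower and their median of -0.16 (11.8%, 14.2% and -0.02 with TMM). Nothing is called particular to a list from these counts. Ratios were lower for longer transcripts over all genes, and that trend was not removed from the list counts or from the genes named below.

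Of 6 other ligands and receptors of the insulin family, 3 were measured, 1 higher and 2 lower in cisplatin (median log2 ratio -0.63). With TMM or size factors 1 was higher and 1 lower, and without Hhex-positive cells 0 were higher and 1 was lower. Igf1, the other ligand of IGF1R, had 2 UMIs in vehicle, both in 1 Hhex-positive cell, and 188 UMIs in cisplatin (6.57 CPM, 5.66 to 7.58). Of these 188 UMIs 162 were in Hhex-positive cells, at 20.9 CPM (17.8 to 24.4) against 1.25 (0.814 to 1.83) in Hhex-negative cells. Counted without thinning, an Igf1 UMI was found in 103 of the 909 Hhex-positive cisplatin cells (11.3%) and in 0.575% of Hhex-negative ones. These shares are not matched for depth, as Hhex-positive cells had the higher median (7926 against 5529 UMIs). Igf1 was thus higher in the cell class in which Igf2 and Igf1r were lower. The insulin receptor Insr stood at 11.7 and 7.23 CPM and the insulin receptor-related receptor Insrr at 34.5 and 18.8, in vehicle and cisplatin.

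Of 12 other binding proteins and their proteases, 6 were measured, 1 higher and 2 lower (median -0.15), and the counts were the same with TMM. Igfals, the acid-labile subunit that binds IGF and IGFBP complexes in blood, stood at 5.79 CPM (4.99 to 6.68) in vehicle and 28.2 (26.3 to 30.2) in cisplatin. In Hhex-positive cisplatin cells it stood at 74.7 CPM (68.8 to 81.1), against 10.9 CPM (9.55 to 12.4) in Hhex-negative cells. Counted without thinning, it was found in 34.5% and 5.995% of these cells, again not matched for depth. Vehicle Hhex-positive cells stood at 6.34 CPM (1.73 to 16.2) on 4 UMIs, against 5.78 in Hhex-negative cells. Hhex-negative cells alone were thus also higher in cisplatin, at 5.78 CPM in vehicle and 10.9 in cisplatin. Igfbp7 stood at 2.55 and 0.664 CPM and Adam28, a metalloprotease known to cleave IGFBP3, at 6.85 and 3.28 CPM in vehicle and cisplatin.

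Of 41 signalling genes downstream of the receptors, 38 were measured, 1 higher and 11 lower (median -0.37). Akt1, a kinase that acts after PI3K, stood at 49.5 CPM in vehicle and 22.9 in cisplatin (log2 ratio -1.08). Rptor, a subunit of the mTOR complex that controls translation, stood at 17.4 and 8.39 CPM and the PI3K catalytic subunit Pik3cb at 5.29 and 2.62. Rheb, the GTPase that activates mTOR, was the 1 gene higher, at 303.5 and 472.7 CPM, and is named after its value was seen. With TMM scaling 3 were higher and 5 lower of the 38, near the shares over all genes.

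Of 20 genes linked to IGF2BPs or to let-7, the miRNA family that targets several of them, 16 were measured, 2 higher and 5 lower (median -0.27). Ccnd2, a D-type cyclin, stood at 1.53 CPM in vehicle and 8.59 in cisplatin, mostly in Hhex-negative cells (11.02 against 2.07 CPM in Hhex-positive). Dhx9, an RNA helicase, stood at 105.7 and 48.8 CPM, Lin28a, which blocks let-7 maturation, at 4.64 and 2.20, and Arid3a at 5.85 and 2.90. With TMM scaling 2 were higher and 3 lower.

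Of 21 imprinting and locus regulators, 17 were measured, 1 higher and 8 lower (median -0.55). Tet3, a DNA demethylating enzyme, stood at 58.8 and 31.0 CPM in vehicle and cisplatin, and Zfp445, a zinc finger protein that maintains imprints, at 5.20 and 2.34. The cohesin subunits Smc1a and Smc3 stood at 188.3 and 101.9 and at 204.4 and 113.3 CPM. Plagl1, an imprinted zinc finger factor, was the 1 gene higher, with 31 and 48 UMIs, and is named after its value was seen. With TMM scaling 1 was higher and 7 lower. In Hhex-negative cells alone 0 were higher and 8 lower.

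**Figure D5:**
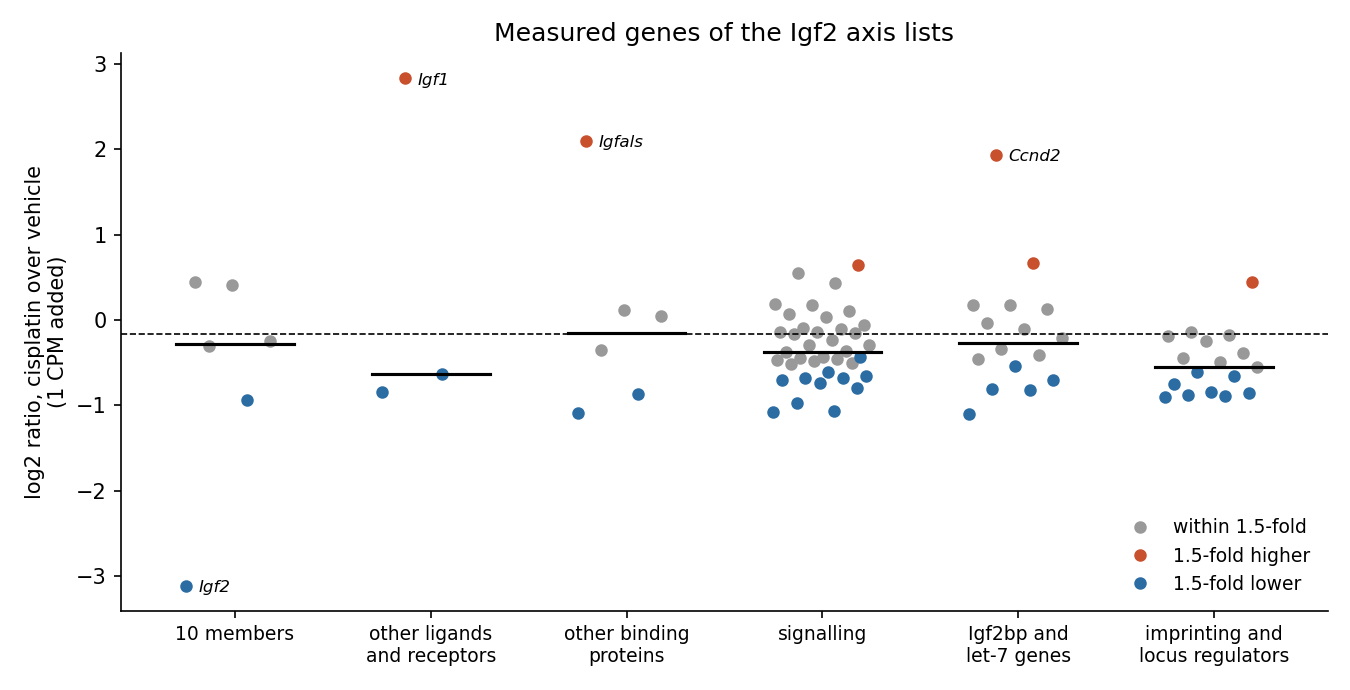
Log2 ratio of cisplatin over vehicle (1 CPM added) of each measured gene of the 10 members and of 5 lists of related genes; red and blue points are 1.5-fold higher and lower, short lines are list medians and the dashed line is the median of all 13400 genes (-0.16). Igf2 lies at -3.11, and Igf1, Igfals and Ccnd2 lie at the top (2.83, 2.10 and 1.93).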

How the data were processed

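UMI counts per gene and barcode were deposited by the authors as raw counts without normalization, per the file headers. Cell Ranger 2.0.2 and mm10 are named in the submitters' processing notes, with roles not given in the sources used here. No replicates exist within a group.

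Barcodes with under 500 genes or over 10% mitochondrial UMIs were removed (54 vehicle, 36 cisplatin), as were 22 and 6 with 3 or more markers of 1 stromal or blood cell type, each marker found in under 2% of barcodes. No doublets were removed, which bears on cells with very many UMIs. UMIs were summed per library, state or Hhex class and scaled to CPM. A gene was measured with 50 UMIs over both groups, and 1.5-fold in CPM was the limit for higher or lower. States and shares used cells thinned to 3000 UMIs (143 vehicle and 361 cisplatin cells were shallower and left out). Hhex classes and the shares given as without thinning used full counts of all tumour cells. Intervals are exact Poisson (sums), conditional binomial (ratios) and Clopper-Pearson (shares), at 95%; a count of 0 allows up to 3 counts.

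The genes and lists were chosen with earlier results of these data known. The text names all members, up to 4 measured genes per list with the largest ratio past 1.5-fold, measured genes within 300 kb of Igf2, the 6 genes most correlated with Igf2 in vehicle, and the deleted genes; some of these genes are not reported here. Positions come from GENCODE M21 (28339 identifiers matched, 353 unmatched). Promoters come from RefSeq (GRCm38.p6), which held sequences for 8 of the 10 members. TMM used edgeR 4.0.16 and size factors DESeq2 1.42.0 in R 4.3.3, for scaling only. Other steps used Python 3.11.15, numpy 2.4.6, scipy 1.17.1, pandas 2.3.3, statsmodels 0.14.6 and matplotlib 3.10.9. Of these steps, the calls and log2 ratios were tested on simulated library sums, and thinning was checked on barcodes of these data. Alternatives covered scaling, added CPM, gene and barcode filters, states, Hhex limits, transcript length, thinning and the fold limit.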

Additional observations from a re-analysis of the deposited data

Results flagged for a closer look

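Members were also counted in the barcodes left out of every comparison for markers of stromal or blood cells, and 3 values there had intervals wholly above those of the tumour cells of the same library; other members were also higher there in point value, with overlapping intervals. Igfbp4, a secreted binding protein, stood at 151 CPM (99.2 to 219) in 22 vehicle barcodes and at 47.7 CPM (5.77 to 172) in 6 cisplatin barcodes, against 0.280 and 0.140 CPM in tumour cells. Of its 27 vehicle UMIs there, 19 were in 4 of 9 barcodes with T or NK cell markers and 8 were in 2 of 5 with endothelial markers. Igf2bp3 stood at 71.5 CPM (14.7 to 209) in the 6 cisplatin barcodes, from 3 UMIs in 1 barcode with myeloid markers, against 13.3 CPM in tumour cells. These values rest on few barcodes, and the source of the RNA was not tested.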

How the results depend on the processing

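No paired analysis was possible because each group had 1 library and nothing pairs cells across libraries. Igf2 stayed lower in cisplatin under all 16 alternatives, with log2 ratios from -3.17 to -2.81 beside -3.11. Among these, dropping the UMI minimum and the 2-fold limit change only the calls, so their ratios equal the main one by design. It moved beyond its counting interval with TMM (-2.96), size factors (-2.93), 5 CPM added (-2.89), thinned cells (-2.93), without Hhex-positive cells (-2.86) and, added after seeing the data, also without cells with 3 other delta genes (-2.81). The count of higher members, 0, became 2 with TMM and 2 with size factors (Igf2bp2 and Igf2bp3), 1 without a UMI minimum and 1 with the length trend removed. The count of lower members, 2, became 4 without a UMI minimum and 1 at a 2-fold limit. Without the length trend Igf2r reversed to 0.07.

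In Hhex-positive cells Igf2 moved from -1.32 to -2.27 (2 Hhex UMIs), -1.89 (thinned cells) and -2.54 (3 of 6 other delta genes). For mitotic over S-gene-low vehicle cells, the count of higher members was 0 with 1 mitotic UMI, with unthinned counts and at 2-fold, and the lower count was 0 at 2-fold, as it was in cisplatin. With 1 mitotic UMI the vehicle ratio of Igf2 reversed from -0.17 to 0.01. Of 288 alternative values, 231 moved by less than their interval or by under 1.5 times. These include log2 ratios that the 2-fold limit and the dropped UMI minimum could not change. Causes were not tested. Depth limits H19, Igf2bp1, Igfbp2 and Igfbp4, and the 51 vehicle Hhex-positive cells.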

Other observations

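Over 3507 vehicle cells, Cd9 (Pearson r 0.213) and Itm2c (0.193) were among the genes with the highest correlations with Igfbp5, and in cisplatin cells these were 0.292 and 0.173. The lowest were with the cell cycle genes Top2a (-0.272), Hmgb2 (-0.261), H2afz (-0.260) and Mki67 (-0.255), which were -0.141, -0.168, -0.223 and -0.108 in cisplatin. These values are across cells of 1 library that share depth and free RNA, and the mitotic genes also set the cell states. Pappa2, a protease of IGF binding proteins, had 0 UMIs in vehicle and 18 in cisplatin, under the 50 needed, and was named after its value was seen.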
